A study of Mus musculus with 24 samples.

Results

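The NF-κB genes described here were 10 in number and code for the 5 subunits of the transcription factor NF-κB, 4 inhibitors of the IκB family and a ubiquitin-editing inhibitor. They were chosen by name, as all non-control microarray probes whose transcript identifier maps to *Nfkbia*, *Nfkbib*, *Nfkbie*, *Nfkbiz*, *Nfkb1*, *Nfkb2*, *Rela*, *Relb*, *Rel* or *Tnfaip3*. These 10 genes were among 23787 named genes on the array and were covered by 15 of 56605 probes.

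Gene expression was measured in the hippocampus of 48 male Swiss-Webster mice aged 12 weeks, on 24 two-color microarrays. Corticosterone-treated animals drank water with 100 µg/ml corticosterone and 0.45% hydroxypropyl-β-cyclodextrin through a dark phase of 12 h, and control animals drank water with 0.45% hydroxypropyl-β-cyclodextrin and no hormone. The animals were then killed during the first, the fifth or the ninth hour of the light phase, with 8 control and 8 corticosterone-treated animals at each hour. Every array held RNA of 1 control animal labelled with Cy3 and of 1 corticosterone-treated animal labelled with Cy5, and no RNA was pooled. Control animals were brothers of treated animals, and the animals of a group came from several litters. The dyes were not swapped, so within an hour the effect of treatment and a constant dye difference of a probe cannot be told apart. Such a dye difference cancels in comparisons between hours.

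In resting cells, inhibitors of the IκB family hold NF-κB dimers in the cytoplasm, and receptor signals lead to the breakdown of the inhibitors and release the subunits into the nucleus. There the subunits switch on inflammatory genes and also genes of their own inhibitors, which closes a feedback loop. Glucocorticoids are known to oppose NF-κB signaling, in part through transcription of *Nfkbia*, and in brain tissue the pathway is active in glia, blood vessels and neurons.

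Marker genes were used to describe the tissue. No markers of other brain regions were included, so the hippocampus label itself was not tested. All 8 neuronal markers, including *Prox1* of the dentate gyrus and *Wfs1* of the CA1 field, and all markers of astrocytes, oligodendrocytes, microglia and endothelial cells were well above background, as judged by the scanner software, in all 48 channels. Of 6 choroid plexus markers, 5 were also well above background in all 48 channels, with mean signal intensities from 60 (*Aqp1*) to 778 (*Kl*), and *Folr1* was in 39. Among blood markers, *S100a8* was well above background in 2 of 48 channels. Per array, 58.9 to 65.6% of all probes passed this criterion in Cy3 and 62.3 to 72.2% in Cy5. Signal intensities are background-corrected and normalized values in arbitrary units. Of the 15 probes of NF-κB genes, 12 were well above background in all 48 channels, and the remaining 3 were the dimmer *Nfkb2* probe (44 channels), the *Rel* probe (43 channels) and the dimmer *Rela* probe (25 channels).

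During the first hour, *Nfkbia* was higher and *Rela* and *Tnfaip3* were lower in corticosterone-treated animals, and *Relb* was higher by its dimmer probe. In total, 4 of the 15 probes (26.7%) displayed significant differences, at a Benjamini-Hochberg adjusted p below 0.05 in the limma separate channel test, against 17.5% of all 56605 probes. During the fifth hour 4 of 15 probes differed, namely both *Nfkbiz* probes, the brighter *Rela* probe and the dimmer *Relb* probe, against 18.1% of all probes. During the ninth hour 3 of 15 probes differed (20%), with *Nfkbia* and *Rela* lower and the dimmer *Relb* probe higher, against 13.9% of all probes. The median log2 fold change of the 15 probes was 0.09, 0.09 and 0.03 at the 3 hours, and that of all probes was 0 at each hour. The hippocampus is a mixed tissue, so fewer cells of a type and less RNA per cell cannot be told apart.

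The size of the corticosterone effect itself was compared between hours as well. *Nfkbia* was the only NF-κB gene whose effect differed between the ninth and the first hour (1 of 15 probes, against 0.829% of all probes) and between the fifth and the first hour (1 of 15, against 0.0389%). Between the ninth and the fifth hour, limma called 0 of 15 probes, against 0.0813% of all probes, and 5 of the 15 had an unadjusted p below 0.05. In control animals, limma called 0 of 15 probes between the ninth and the first hour, against 0.516% of all probes, and 4 had an unadjusted p below 0.05. In corticosterone-treated animals 2 of 15 probes differed between these hours, *Nfkbia* and the brighter *Relb* probe, against 3.93% of all probes.

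**Figure D1:**
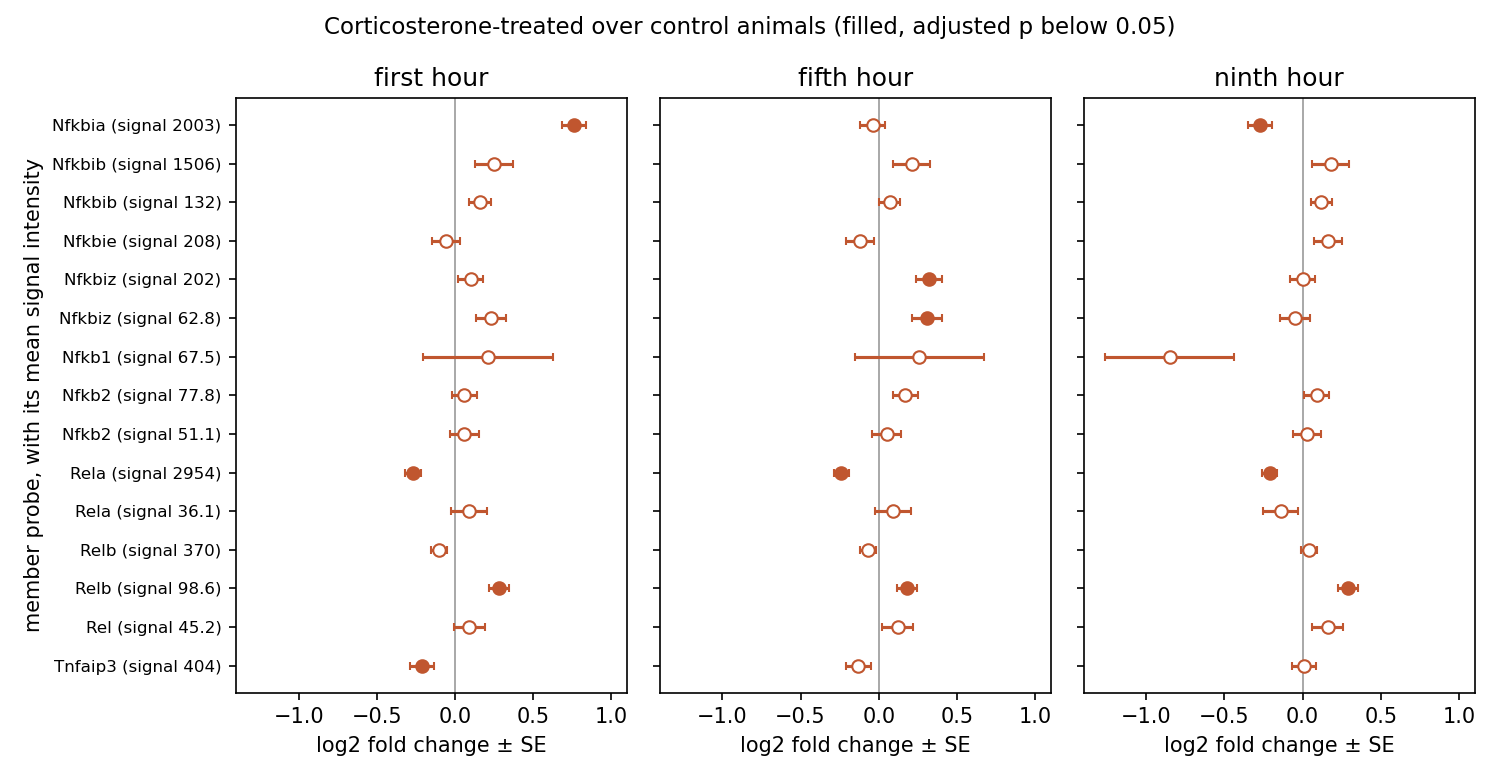
Log2 fold change of corticosterone-treated over control animals with its standard error for the 15 probes of NF-κB genes, 8 arrays per hour, with filled points at an adjusted p below 0.05. *Nfkbia* moved from 0.76 during the first hour to -0.27 during the ninth, and the wide bars of *Nfkb1* contain an array with a log2 ratio of -7.68.

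The inhibitors come first. *Nfkbia* codes for IκBα, the inhibitor that is degraded and made anew in each round of NF-κB signaling. Its promoter is shown because the gene had the largest log2 fold change of the 10 genes during the first hour, and those of *Rela* and *Tnfaip3* are shown beside it as the other significant genes of that hour with a promoter at hand. The sequences are the 250 bases before the annotated start from RefSeq (GRCm38.p6), 5′ to 3′ in the direction of the gene, and capitals mark matches to the κB-like motif GGNNNTTCC on either strand.

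*Nfkbia*, chr12:55492648-55492897, minus strand: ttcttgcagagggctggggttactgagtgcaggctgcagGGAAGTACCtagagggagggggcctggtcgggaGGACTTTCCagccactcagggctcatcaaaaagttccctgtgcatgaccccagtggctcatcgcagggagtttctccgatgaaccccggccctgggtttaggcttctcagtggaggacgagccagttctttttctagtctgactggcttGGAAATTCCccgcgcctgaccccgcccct
*Rela*, chr19:5637291-5637540, plus strand: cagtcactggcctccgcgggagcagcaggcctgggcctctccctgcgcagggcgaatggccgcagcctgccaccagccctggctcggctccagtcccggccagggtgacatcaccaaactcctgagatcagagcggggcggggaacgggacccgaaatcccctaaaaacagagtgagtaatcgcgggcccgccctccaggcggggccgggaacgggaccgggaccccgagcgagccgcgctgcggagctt
*Tnfaip3*, chr10:19015411-19015660, minus strand: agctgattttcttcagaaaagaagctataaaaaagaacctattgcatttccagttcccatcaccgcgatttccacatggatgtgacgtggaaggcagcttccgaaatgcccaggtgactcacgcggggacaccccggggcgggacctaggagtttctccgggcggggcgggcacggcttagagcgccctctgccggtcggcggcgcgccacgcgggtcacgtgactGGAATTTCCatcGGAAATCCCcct

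The *Nfkbia* sequence held 3 matches, which begin 211, 178 and 29 bases before the start, and the nearest also matched GGGNNTTTCC on the opposite strand. The upstream *Tnfaip3* start had 2 matches, at 24 and 12 bases, of which the nearer also matched GGGNNTTTCC on the opposite strand, and the *Rela* sequence had no match. The other *Tnfaip3* start had 1 match, at 89 bases. Among 32851 mouse promoter windows of this length, 15.7% held GGNNNTTCC and 1.41% held GGGNNTTTCC. Promoters were at hand for 7 of the 10 genes, as 10 windows, and those of *Nfkbie*, *Nfkb2* and *Rel* held GGNNNTTCC too, with GGGNNTTTCC in 2 of the 3 *Nfkb2* windows and in that of *Rel*. The letters GNACANNNTGTNC, a form of the glucocorticoid response element, were in none of the 10 windows and in 0.387% of all windows. A match describes the letters alone.

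*Nfkbia* was detected by probe A_51_P295192. Its first-hour signal intensity in the 8 control animals was 1512 at the lowest, 1843 at the median and 2014 at the highest. In the 8 corticosterone-treated animals it was 2131, 3223 and 4295. The groups did not overlap, and every treated animal lay above the highest control animal. The log2 ratio on the 8 arrays ran from 0.28 to 1.09. The log2 fold change was 0.76 (SE 0.0779, adjusted p = 1.5e-10, higher on 8 of 8 arrays), which is a 1.7-fold difference.

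During the fifth hour the *Nfkbia* groups overlapped. Control animals had signals of 1560, 1675 and 2033 (lowest, median and highest), and corticosterone-treated animals had 1471, 1599 and 1963. The log2 fold change of -0.04 (SE 0.0779, adjusted p = 0.74) did not pass the test, and the ratio was above 0 on 2 of 8 arrays.

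During the ninth hour the order of the groups had turned. Control animals had signals of 1650, 2085 and 2271, and corticosterone-treated animals had 1543, 1648 and 1853. The ranges still overlapped, with 4 treated animals below the lowest control animal. The log2 fold change was -0.27 (SE 0.0779, adjusted p = 0.012), with a lower signal in the treated animal on 8 of 8 arrays.

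**Figure D2:**
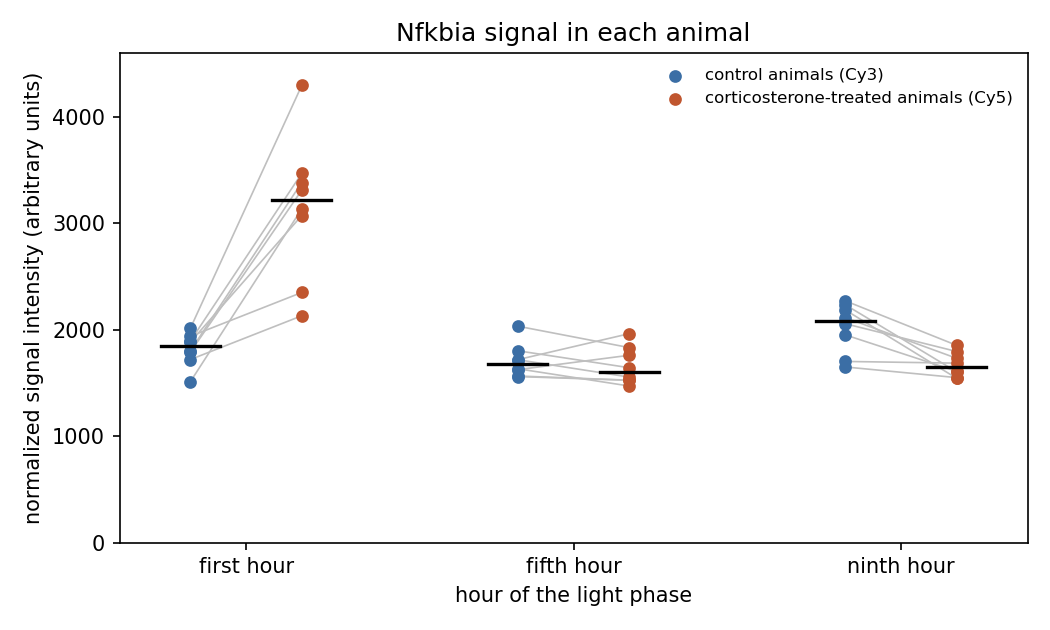
Normalized signal intensity of *Nfkbia* (arbitrary units) in each animal, with a grey line joining the animals of an array and a black bar at the median of 8 animals. During the first hour the corticosterone-treated animals lie between 2131 and 4295 and the control animals between 1512 and 2014.

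The corticosterone effect on *Nfkbia* was smaller during the ninth than during the first hour by -1.03 (log2, SE 0.11, adjusted p = 3.5e-09) and smaller during the fifth than during the first by -0.81 (SE 0.11, adjusted p = 1.3e-05). The step from the fifth to the ninth hour, -0.22, did not pass the test (adjusted p = 0.91). Within the Cy5 channel, corticosterone-treated animals fell by 0.88 between the first and the ninth hour (SE 0.0913, adjusted p = 6.1e-10). Within the Cy3 channel, the difference of control animals was 0.15 (adjusted p = 0.64).

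The arrays came from 3 slides, and each slide held arrays of all 3 hours. The mean log2 ratio of *Nfkbia* during the first hour was 0.97 on slide 1 (2 arrays), 0.5 on slide 2 (3 arrays) and 0.89 on slide 3 (3 arrays). During the ninth hour it was -0.26 on slide 1 (4 arrays), -0.05 on slide 2 (2 arrays) and -0.49 on slide 3 (2 arrays). With slide as a block, the log2 fold changes of the first and the ninth hour remained 0.76 and -0.27 (adjusted p = 4e-11 and 0.0077). The ninth-hour call was lost when slide 1 or slide 3 was left out, and the call of the fifth against the first hour was lost without slide 3 (adjusted p up to 0.19 and up to 0.11 over 13 alternatives).

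*Nfkbib* codes for IκBβ, a slower-acting inhibitor of the same dimers, and was detected by 2 probes that did not pass the test at any hour. The brighter probe, A_51_P259459, had log2 fold changes of 0.25, 0.21 and 0.18 (adjusted p = 0.12, 0.2 and 0.31), with the treated animal higher on 7, 7 and 8 of 8 arrays. Its control animals of the first hour ranged from 1263 to 1422 around a median of 1350, and its treated animals from 1298 to 1811 around 1626. Treated animals exceeded the highest control animal in 7 of 8 cases, so the ranges overlapped by a single treated animal.

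A single array stood apart for this probe. On replicate 7 of the fifth hour, the control animal had a signal of 549 and the treated animal 607, while the lowest values on the other arrays of that hour were 1241 and 1553. Without this array for this probe, an alternative chosen after seeing the data, the log2 fold changes were 0.25, 0.22 and 0.18 and passed the test at all 3 hours (adjusted p = 0.00012, 0.0015 and 0.007). The probe also passed at each hour in the test on log2 ratios, with processed signals, without slide 3 and with the authors' ratios. In the other alternatives it did not pass. The dimmer *Nfkbib* probe, A_66_P105300, had log2 fold changes of 0.16, 0.07 and 0.12, none significant (adjusted p = 0.1, 0.49 and 0.25), in the same direction. Its first-hour value passed the test in 2 alternatives, Aquantile normalization (0.18, adjusted p = 0.048) and processed signals (0.23, adjusted p = 0.023), and its adjusted p over 13 alternatives ran from 0.023 to 0.42.

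*Nfkbie* codes for IκBε, a further cytoplasmic inhibitor. Its signal in single animals ran from 144 to 287 over all groups, and the groups overlapped at each hour. Its log2 fold changes of -0.06, -0.12 and 0.16 did not pass the test (adjusted p = 0.63, 0.35 and 0.2).

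*Nfkbiz* codes for IκBζ, a nuclear member of the family that acts together with NF-κB subunits on DNA and is itself an inducible gene. During the fifth hour its brighter probe, A_51_P387591, had signals of 131, 186 and 220 in control animals and of 200, 224 and 272 in corticosterone-treated animals. The ranges overlapped, and 4 of 8 treated animals lay above the highest control animal. The log2 fold change was 0.32 (SE 0.0813, adjusted p = 0.0032, higher on 7 of 8 arrays). The dimmer probe, A_55_P2039086, gave 0.31 (SE 0.0972, adjusted p = 0.023, higher on 7 of 8 arrays).

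The *Nfkbiz* probes did not pass the test during the first hour (0.1 and 0.23, adjusted p = 0.41 and 0.088) or the ninth hour (0 and -0.05, adjusted p = 0.97 and 0.78). The difference of the effect between the ninth and the fifth hour was -0.32 and -0.36, and neither value passed the test (adjusted p = 0.55 and 0.72), so the fifth hour is not shown to differ from the ninth. Within slides 1, 2 and 3 the fifth-hour mean log2 ratio was 0.29, 0.49 and 0.17 for the brighter probe and 0.38, 0.01 and 0.56 for the dimmer probe. The call of the brighter probe was lost without slide 2, and that of the dimmer probe without slide 1 or slide 3 and with the processed signals of the scanner software (adjusted p up to 0.1 and up to 0.48 over 13 alternatives). With slide as a block, the drop of the brighter *Nfkbiz* probe in corticosterone-treated animals from the first to the ninth hour passed the test (-0.3, adjusted p = 0.038), which it did not without the block (-0.28, adjusted p = 0.06), and the dimmer probe passed in neither (-0.3, adjusted p = 0.13 and 0.1). Over the alternatives, the value of the brighter probe passed in 4. In control animals this probe had -0.19 (adjusted p = 0.49), and the change of the effect between these hours was -0.1 (adjusted p = 0.99), so the drop is not shown to differ between treated and control animals.

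Among the subunits, *Rela* codes for p65, which carries the main transactivation domain of the common NF-κB dimer. Its brighter probe, A_55_P1974288, was lower in corticosterone-treated animals at each hour. First-hour signals were 2747, 3102 and 3384 in control animals and 2345, 2543 and 3011 in treated animals. During the fifth hour they were 2921, 3186 and 3767 against 2300, 2795 and 3218, and during the ninth hour 2921, 3126 and 3556 against 2472, 2819 and 2923. The ranges overlapped at each hour, with 7, 6 and 7 of 8 treated animals below the lowest control animal.

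The log2 fold change of *Rela* was -0.27 at the first hour (SE 0.0494, adjusted p = 2.8e-05), -0.24 at the fifth (adjusted p = 0.00018) and -0.21 at the ninth (adjusted p = 0.0012). The treated animal was lower on all 8 arrays at every hour, which amounts to a 1.21-fold, 1.18-fold and 1.16-fold difference. Between hours the effect differed by 0.06 from the first to the ninth (adjusted p = 0.99), so a decline was not detectable and a constant dye difference of this probe is not separated from the effect. On single slides, the mean log2 ratios lay between -0.17 and -0.32 in all 9 combinations of slide and hour. With slide as a block, the log2 fold changes were the same to 2 decimals and were significant at each hour (adjusted p = 1.1e-05, 8.4e-05 and 0.00063).

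The dimmer *Rela* probe, A_55_P2744639, did not pass the test at any hour. Log2 fold changes of 0.09 at the fifth and -0.14 at the ninth hour were not significant (adjusted p = 0.71 and 0.42). In the first hour the scanner software placed it well above background on no control channel and on 8 of 8 corticosterone channels. The mean signals there were 34.1 and 35.5, with the treated animal higher on 5 of 8 arrays, and the comparison was not significant (adjusted p = 0.77).

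*Relb* codes for the subunit of the noncanonical pathway, and its 2 probes disagreed. The dimmer probe, A_55_P2744644, whose identifier is a different transcript, was higher in treated animals at each hour. Its first-hour signals were 70.7, 81.4 and 98.2 in control animals and 88.6, 96.8 and 112 in treated animals, and during the ninth hour 83.9, 90.1 and 111 against 96.5, 119 and 130. The ranges overlapped, with 3 and 6 of 8 treated animals above the highest control animal.

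The log2 fold changes of this probe were 0.28 at the first hour (adjusted p = 0.003, 8 of 8 arrays), 0.18 at the fifth (adjusted p = 0.045, 6 of 8 arrays higher) and 0.29 at the ninth (adjusted p = 0.0015, 8 of 8 arrays). The fifth-hour call was lost without any of the 3 slides, and the ninth-hour call without slide 1 (adjusted p up to 0.3 and up to 0.14 over 13 alternatives). Within slides, the mean log2 ratio was 0.38, 0.31 and 0.19 during the first hour and 0.34, 0.2 and 0.3 during the ninth. From the first to the ninth hour the effect differed by 0.01, which did not pass the test. A constant dye difference of this probe is therefore not separated from the effect.

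The brighter *Relb* probe, A_51_P389751, had log2 fold changes of -0.1, -0.07 and 0.04, none significant (adjusted p = 0.15, 0.29 and 0.7). Between the first and the ninth hour its signal rose in corticosterone-treated animals by 0.26 (SE 0.0598, adjusted p = 0.0019), from a median of 330 (309 to 367) to a median of 394 (384 to 423). These 2 groups did not overlap. In control animals the difference was 0.13 (adjusted p = 0.38), and the change of the effect between these hours was also 0.13 (adjusted p = 0.72). The rise in treated animals was 0.24 with slide as a block (adjusted p = 0.0028), and its call was lost without slide 1 or slide 3 (adjusted p up to 0.11 over 11 alternatives). The dimmer probe had 0.23 in the same comparison (adjusted p = 0.064). This value passed with processed signals (0.34, adjusted p = 0.037), with the filter on dim probes (0.23, adjusted p = 0.046) and without slide 2 (0.3, adjusted p = 0.045).

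*Nfkb1* codes for p105, the precursor of p50, and was detected by a single probe, A_55_P1968743. Signals of the first hour were 54.9, 64.6 and 78.6 in control animals and 63.1, 74.7 and 97.7 in treated animals. The ranges overlapped, and the treated animal was higher on 7 of 8 arrays. During the ninth hour the control animals reached from 43.7 to 270 and the treated animals from 1.32 to 70.5.

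Both extremes of the ninth hour came from replicate 4, where the Cy5 background beside the *Nfkb1* spot was 313, against 39 to 45 on the other 23 arrays. The Cy5 median of the spot itself was 177, below that background. The scanner software still placed this channel well above background. The log2 ratio there was -7.68 without an offset, -1.72 with an offset of 50 and -0.91 in the processed signals of the scanner software. With all arrays the log2 fold changes were 0.21, 0.26 and -0.85, none significant (SE 0.414, adjusted p = 0.44, 0.36 and 0.29). Without this array for this probe, an alternative chosen after seeing the data, they were 0.21, 0.26 and 0.13, and the fifth hour passed the test (adjusted p = 0.056, 0.024 and 0.42).

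*Nfkb2*, which codes for p100, the precursor of p52, and *Rel*, which codes for c-Rel, a subunit best known from lymphocytes, had dim probes. The *Nfkb2* probes had log2 fold changes between 0.03 and 0.17 at the 3 hours, and the *Rel* probe had 0.09, 0.12 and 0.16. None of these 9 values was significant in the limma test (lowest adjusted p = 0.14), and 1 of them, *Nfkb2* during the fifth hour, had an unadjusted p below 0.05. Groups overlapped in every case.

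*Tnfaip3* codes for a ubiquitin-editing enzyme that shuts off signaling upstream of the IκB kinase and is itself induced by NF-κB. During the first hour its probe, A_55_P2053838, had signals of 411, 461 and 527 in control animals and of 311, 404 and 531 in treated animals. The ranges overlapped fully at the upper end, while 4 of 8 treated animals lay below the lowest control animal. The log2 fold change was -0.21 (SE 0.0772, adjusted p = 0.043, lower on 7 of 8 arrays). The call was lost in 7 of 13 alternatives, where the log2 fold change stayed between -0.24 and -0.17 and the adjusted p reached 0.26. On slides 1, 2 and 3 the first-hour mean log2 ratio was -0.09, -0.23 and -0.26.

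For *Tnfaip3*, the log2 fold change was -0.13 at the fifth and 0.01 at the ninth hour (adjusted p = 0.24 and 0.95). Control animals had a median of 461, 401 and 386 at the 3 hours. The difference between the ninth and the first hour, -0.28 (SE 0.0905), did not pass the test in control animals (adjusted p = 0.17).

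**Figure D3:**
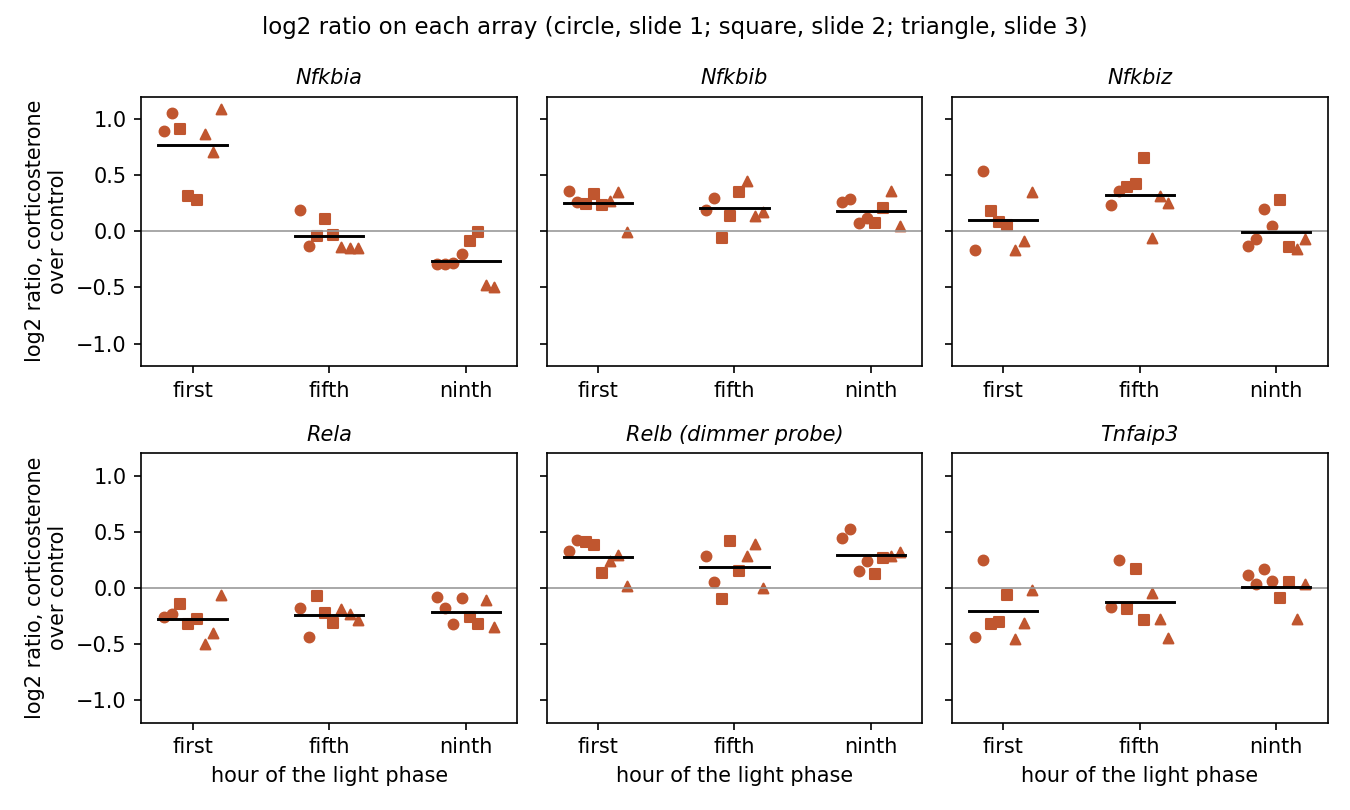
Log2 ratio of the corticosterone-treated over the control animal on each of 24 arrays for 6 probes, with the hour of the light phase on the x axis, the symbol showing the slide and the bar the mean of 8 arrays. The ratios of *Nfkbia* lie between 0.28 and 1.09 during the first hour and between -0.5 and -0.01 during the ninth, and those of *Rela* lie below 0 on every array.

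The genes whose log2 ratio over the 24 arrays was most like that of *Nfkbia*, of 15437 genes with a mean signal of 50 or more, were *Ddit4* (Pearson r = 0.937), *Sgk1* (0.924), *Pmaip1* (0.918), *Plekhf1* (0.915) and *Ppp1r3g* (0.906). The median r of all genes was 0.01. The arrays share the change between hours, and after the mean of each hour was subtracted, an alternative chosen after seeing the data, r was 0.686, 0.615, 0.563, 0.546 and 0.633, against a median of 0.1. These coefficients are a description of 24 arrays. The genes were chosen by them, so a course over the hours like that of *Nfkbia* was part of the choice.

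*Ddit4*, an inhibitor of mTOR signaling, and *Sgk1*, a kinase that regulates ion channels, are both known glucocorticoid targets. At the first hour *Ddit4* had a log2 fold change of 0.57 (adjusted p = 1.4e-09) and *Sgk1* of 0.71 (adjusted p = 5.7e-11), each higher on 8 of 8 arrays. Neither passed the test during the fifth hour (0.11 and 0) or the ninth hour (-0.12 and -0.12). *Pmaip1*, which codes for a pro-apoptotic protein, had 1.27 during the first hour (adjusted p = 1.8e-12), and *Plekhf1* had 1.12 (adjusted p = 3.1e-12). *Ppp1r3g*, a regulator of glycogen synthesis, had 0.47 during the first hour (adjusted p = 7.4e-05) and, like *Nfkbia*, was lower during the ninth (-0.26, adjusted p = 0.034).

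**Figure D4:**
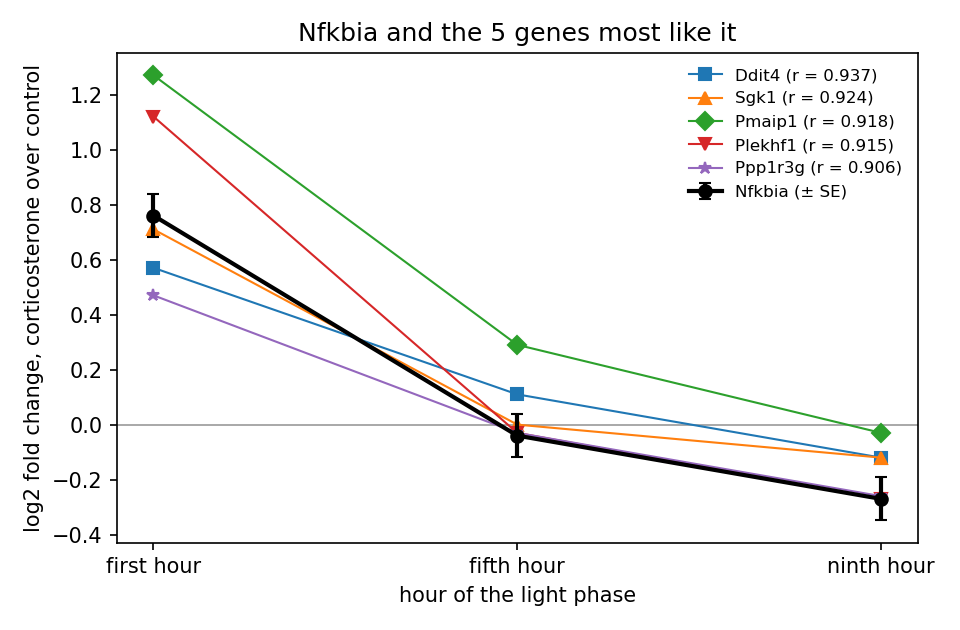
Log2 fold change of corticosterone-treated over control animals at the 3 hours for *Nfkbia* (black, with standard error) and the 5 genes with the highest correlation of log2 ratios with it. All 6 genes were higher during the first hour, *Nfkbia* by 0.76, and had values between -0.27 and -0.03 during the ninth. The 5 genes were chosen on these arrays, so a course like that of *Nfkbia* was part of the choice.

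A reference list of 12 genes induced by glucocorticoids gives a scale for these values. It was chosen with earlier results of these data known, so its counts are a description and no separate evidence. The authors report *Plin4*, *Sult1a1* and *Cdkn1a* among the altered genes of these same animals. During the first hour 10 of the 12 rose and none fell, with a median of 0.59 and the largest log2 fold changes for *Plin4* (3.47, adjusted p = 2.5e-19), *Sult1a1* (2.1) and *Cdkn1a* (2.06), each higher on 8 of 8 arrays. During the fifth hour 6 rose, with a median of 0.2, and during the ninth 2 rose and 4 fell, with a median of -0.08. Of all 23787 named genes, 10.2, 9.90 and 8.32% were significantly higher at the 3 hours, and 10.4, 10.9 and 7.16% significantly lower. The 2 that rose at the ninth hour were *Sult1a1* (1.68, adjusted p = 2.2e-16) and *Plin4* (0.75, adjusted p = 0.017). *Tsc22d3*, which codes for the glucocorticoid-induced leucine zipper, changed from a higher level early (0.93, adjusted p = 5.8e-10) to a lower level at the ninth hour (-0.58, adjusted p = 3.9e-05, lower on 8 of 8 arrays). *Fkbp5*, a chaperone of the glucocorticoid receptor, was 0.6 and -0.27 at these hours (adjusted p = 1.8e-07 and 0.014), and *Errfi1* was 0.33 and -0.26 (adjusted p = 0.0018 and 0.016). For 10 of the 12 genes the effect at the ninth hour lay significantly below that of the first, against 0.959% of all named genes. The median difference of the 12 was -0.65.

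The wider NF-κB pathway was followed in 71 genes from 5 lists, each by its brightest probe. Of these, 9 rose and 11 fell during the first hour, with a median log2 fold change of -0.03. Over the brightest probes of all 23787 named genes, 10.2% were significantly higher and 10.4% significantly lower, with a median of 0. During the fifth hour 7 rose and 10 fell, against 9.90 and 10.9% of all named genes, and during the ninth 5 rose and 5 fell, against 8.32 and 7.16%. The effect differed between the ninth and the first hour for 2 of the 71 genes, 1 in each direction, against 0.500% of all named genes with a higher and 0.959% with a lower value.

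Of 9 receptors, 2 rose during the first hour. *Il1r1*, the signaling receptor of interleukin-1, was higher by 0.48 (SE 0.133, adjusted p = 0.0035, 8 of 8 arrays), and *Tnfrsf11a* by 0.17 (adjusted p = 0.046, 7 of 8 arrays). *Ltbr* was lower during the fifth hour (-0.24, adjusted p = 0.016, lower on 6 of 8 arrays). During the ninth hour limma called 0 of 9 receptors, and 3 had an unadjusted p below 0.05. In corticosterone-treated animals 3 receptors rose between the first and the ninth hour, among them *Tlr2* (0.44, adjusted p = 0.0089) and *Ltbr* (0.33, adjusted p = 0.018), and *Il1r1* fell by 0.53 (adjusted p = 0.018), against 3.93% of all probes with a significant difference in either direction. For the change of the effect between these hours limma called 0 of 9 receptors, and 1 had an unadjusted p below 0.05.

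Of 11 adaptors, *Ticam1*, which links Toll-like receptors to NF-κB, was higher (0.31, adjusted p = 0.00055, 8 of 8 arrays) and the kinase *Irak1* lower (-0.17, adjusted p = 0.0029, lower on 8 of 8 arrays) during the first hour. *Irak1* was also lower during the fifth and the ninth hour (-0.14 and -0.13, adjusted p = 0.016 and 0.023), *Irak4* was lower at the fifth (-0.25, adjusted p = 0.04, lower on 7 of 8 arrays), and *Tradd* was higher at the ninth (0.21, adjusted p = 0.0018, 8 of 8 arrays). Of 11 kinases, 4 fell and none rose during the first hour, with a median of 0.04, among them *Chuk*, which codes for the catalytic IκB kinase α (-0.2, adjusted p = 0.022, lower on 7 of 8 arrays), *Map3k7* (-0.21, adjusted p = 0.048, lower on 7 of 8) and *Tab3* (-0.2, adjusted p = 0.00017, lower on 8 of 8). *Ikbkb*, which codes for IκB kinase β, was higher during the fifth hour (0.16, adjusted p = 0.025, 8 of 8 arrays), and *Map3k7* (-0.3, adjusted p = 0.0037) and *Tab3* (-0.19, adjusted p = 0.00038) were lower at that hour. During the ninth hour 2 kinases were lower, *Map3k7* (-0.29, adjusted p = 0.0072) and *Chuk* (-0.25, adjusted p = 0.0062).

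Of 15 other inhibitors, 4 rose and 2 fell during the first hour. *Bcl3*, an atypical IκB protein that binds p50 and p52 dimers in the nucleus, was lower by -0.47 (SE 0.119, adjusted p = 0.0071, lower on 8 of 8 arrays). Its effect differed from that of the ninth hour by 0.77 (SE 0.168, adjusted p = 0.012). *Nfkbid*, another nuclear IκB protein, was higher during the first, the fifth and the ninth hour (0.2, 0.35 and 0.3, adjusted p = 0.01, 1.3e-05 and 0.00023). *Tnip2* was higher during the first hour (0.2, adjusted p = 0.0079, 8 of 8 arrays), *Commd1* lower during the fifth (-0.19, adjusted p = 0.0034, lower on 8 of 8), and *Otulin* lower at the fifth and the ninth (-0.18 and -0.16, adjusted p = 0.022 and 0.046).

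Of 25 known targets of NF-κB, 2 rose and 4 fell during the first hour, with a median of -0.06 for all and -0.04 for the 14 with a mean signal of 50 or more. *Vcam1*, an adhesion molecule of blood vessels and astrocytes, was lower on 8 of 8 arrays at each hour (-0.5, -0.53 and -0.42, adjusted p = 2.5e-09, 1.5e-09 and 4.2e-07). The chemokine *Cxcl10* was lower during the first hour (-1.06, SE 0.289, adjusted p = 0.0067, lower on 6 of 8 arrays), with a probe well above background in 39 of 48 channels. *Bcl2l1*, which codes for the survival protein Bcl-xL, was higher at each hour (0.44, 0.3 and 0.18, adjusted p = 8.2e-13, 3.2e-08 and 0.00054, 8 of 8 arrays), and its effect had declined by the ninth hour (-0.26, adjusted p = 0.002). *Lcn2* was higher at the fifth and the ninth hour (0.39 and 0.3, adjusted p = 0.00047 and 0.0081). The probes of 4 targets were well above background in 0 of 48 channels.

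**Figure D5:**
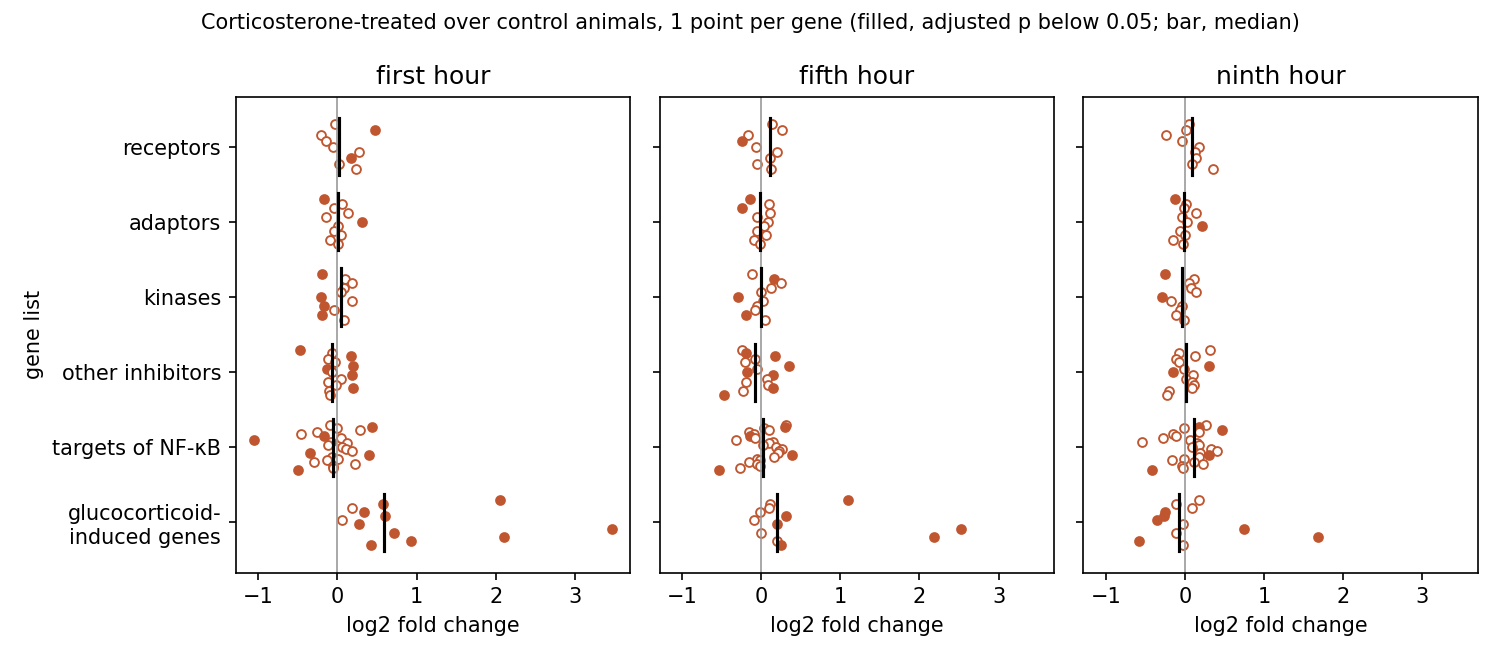
Log2 fold change of corticosterone-treated over control animals for each gene of 5 NF-κB pathway lists and a reference list of 12 glucocorticoid-induced genes, with filled points at an adjusted p below 0.05 and bars at the median. The reference list has a median of 0.59 during the first and -0.08 during the ninth hour, and the medians of the pathway lists lie between -0.08 and 0.11 at the 3 hours.

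Markers of some cell types moved with treatment as well. During the first hour 2 of 8 endothelial markers rose and 4 fell, with a median of -0.24. Of all named genes, 10.2% were significantly higher and 10.4% significantly lower at that hour by their brightest probe. The largest endothelial change was that of *Flt1* (-0.61, adjusted p = 1.6e-08, lower on 8 of 8 arrays). *Cldn5* changed from -0.36 (adjusted p = 5.7e-05) during the first to 0.24 (adjusted p = 0.0083) during the ninth hour. In control animals *Cldn5* itself differed between these hours, by -0.35 (adjusted p = 0.017), so the change of the effect includes a change in control animals.

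Of 10 microglial markers, 3 fell during the first hour, *P2ry12* (-0.49, adjusted p = 0.0061), *Aif1* (-0.44, adjusted p = 0.0013) and *Cx3cr1* (-0.2, adjusted p = 0.0033). The other 7 were not called, and the median of the 10 was -0.01. Of all named genes, 10.4% were significantly lower at that hour. Of 6 oligodendrocyte markers 2 rose and 2 fell, with *Mobp* higher by 0.59 (adjusted p = 5.1e-07, 8 of 8 arrays). Of 6 astrocyte markers 2 rose, *Aldh1l1* by 0.57 and *Aldoc* by 0.21. Of 8 neuronal markers 1 fell, and of 7 blood markers 1 fell. The first-hour medians were -0.05 for oligodendrocyte, 0.08 for astrocyte, 0.02 for neuronal and 0.02 for blood markers. Limma called 0 of 6 choroid plexus markers, and 0 had an unadjusted p below 0.05. The effect differed between the ninth and the first hour for 3 of 8 endothelial markers, *Cldn5* (0.6), *Kdr* (0.57) and *Ly6c1* (-0.43). Limma called 0 of the 43 markers of the other lists, of which 9 had an unadjusted p below 0.05. Of all named genes, 0.500% had a significantly higher and 0.959% a significantly lower value in this comparison. The part of these markers in the values of the NF-κB genes was not tested.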

How the data were processed

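Total RNA of single hippocampi was hybridised to 24 Agilent two-color microarrays, with 8 control and 8 corticosterone-treated animals per hour. The deposited scanner files hold spot intensity values that were extracted by the authors' scanner software and were not normalized between arrays. The deposited table of the authors holds log2 ratios of Cy5 over Cy3, with a median per array of 0.00239 to 0.00889. These differed by a median of 0.00119 from ratios computed here with normexp (offset 50) and loess, without a step between arrays. The authors describe Lowess normalization at data extraction and normexp, loess and quantile normalization in their analysis, but not which steps this table holds. Median pixel signals of all 56605 non-control probes were background-corrected by normexp (offset 50 for p values, 0 for fold changes and signals), then loess- and quantile-normalized. Single channels were tested with moderated t-statistics in limma 3.58.1 (R 4.3.3, statmod 1.5.0, intraspot correlation 0.286, 4.94 prior degrees of freedom), with Benjamini-Hochberg adjustment over all probes of a comparison. Gene names came from the RefSeq table of GRCm38.p6 (34566 probes). The 10 genes were set by name, and they and the lists (5 pathway lists, a glucocorticoid reference and 7 sets of cell markers) were chosen with earlier results of these data known. Named list genes were up to 3 per list and comparison with the largest significant log2 fold change and a mean signal of 50 or more, and *Fkbp5* and *Errfi1* were named after their values were seen. The procedure was tested on simulated data. Alternatives covered offsets, background correction, normalization, processed signals, a filter on dim probes, slide as a block, leaving out each slide, outlier spots, a test on ratios and the authors' ratios. Figures were drawn with matplotlib 3.10.9.

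Each comparison rests on 8 arrays per hour, in bulk tissue, with mRNA as the only readout. Dyes were not swapped, so a constant dye difference stays in each treatment comparison. Slides held unequal numbers of arrays per hour, between 2 and 4. Probes with a mean signal under 50 (24570 of 56605) have ratios that depend on background correction. Protein, phosphorylation and nuclear location of NF-κB were not measured.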

Additional observations from a re-analysis of the deposited data

Results flagged for a closer look

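Among 135 groups of 8 values (the log2 ratio, the control signal and the corticosterone signal of each probe at each hour), 13 (9.63%) held a sample far from the others, where the gap to its neighbour divided by the range was above Dixon's 95% critical value for 8 samples. Chance marks about 1 in 20 groups. For the brighter *Nfkbib* probe these were the log2 ratio of replicate 8 of the first hour (gap ratio 0.649, value -0.01 against 0.23 to 0.36) and, on replicate 7 of the fifth hour, the control signal (0.718, 549 against 1241 to 1710) and the corticosterone signal (0.817, 607 against 1553 to 1917). For the dimmer *Nfkbib* probe they were the control signal of replicate 7 of the first hour (0.569, 101 against 117 to 132) and the log2 ratio of replicate 3 of the ninth hour (0.529, -0.31 against 0.03 to 0.34). *Nfkb1* had 3 on replicate 4 of the ninth hour, the log2 ratio (0.927, -7.68 against -0.16 to 0.43), the control signal (0.718, 270 against 43.7 to 73) and the corticosterone signal (0.937, 1.32 against 54.8 to 70.5). The others were corticosterone signals of the brighter *Rela* probe on replicate 8 of the first hour (0.603, 3011 against 2345 to 2590), of the dimmer *Rela* probe on replicate 5 of the ninth hour (0.686, 19.1 against 32.3 to 41.2) and of *Tnfaip3* on replicate 3 of the fifth hour (0.669, 287 against 354 to 393), and control signals of the brighter *Relb* probe on replicate 3 of the first hour (0.629, 311 against 352 to 378) and of *Rel* on replicate 7 of the ninth hour (0.534, 32.6 against 41.7 to 51.8).

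The corticosterone effect differed between hours, by a test of the difference itself in log2, for NF-κB genes and for up to 3 genes of each pathway and reference list with the largest differences. From the first to the ninth hour these were *Nfkbia* (-1.03, adjusted p = 3.5e-09), *Bcl3* (0.77, 0.012), *Bcl2l1* (-0.26, 0.002), *Plin4* (-2.72, 3.6e-10), *Cdkn1a* (-1.89, 1.2e-06) and *Tsc22d3* (-1.51, 1.6e-10). Outside these 3 per list, the difference also passed for *Sgk1* (-0.83, 7.1e-08), *Ddit4* (-0.69, 5e-07), *Pmaip1* (-1.3, 1e-07), *Plekhf1* (-1.39, 2.6e-09) and *Ppp1r3g* (-0.73, 0.00013), and for the endothelial markers *Cldn5* (0.6, 2.6e-05), *Kdr* (0.57, 0.0013) and *Ly6c1* (-0.43, 0.0086). From the first to the fifth hour they were *Nfkbia* (-0.81, 1.3e-05), *Tsc22d3* (-0.73, 0.0075), *Sgk1* (-0.72, 1.4e-05) and *Ddit4* (-0.46, 0.0081), and from the fifth to the ninth *Plin4* (-1.78, 0.00026), *Tsc22d3* (-0.78, 0.0024) and *Fkbp5* (-0.58, 0.0078). *Sgk1*, *Ddit4*, *Pmaip1*, *Plekhf1* and *Ppp1r3g* had been chosen for log2 ratios like those of *Nfkbia* on the same arrays. Their differences between hours are therefore no separate evidence. *Sgk1* and *Ddit4* also belong to the reference list, which was chosen with earlier results of these data known.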

How the results depend on the processing

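Over 13 alternatives (11 for comparisons within a dye), 7 results were significant in the same direction in each: *Nfkbia* during the first hour (log2 fold change 0.69 to 0.92), its ninth against first hour difference (-1.26 to -0.88) and its fall in corticosterone-treated animals (-1.03 to -0.73), *Rela* at the 3 hours (-0.29 to -0.25, -0.27 to -0.22 and -0.26 to -0.19) and the dimmer *Relb* probe during the first hour (0.17 to 0.34). No significant value reversed. None of the alternatives removes a constant dye difference from the treatment comparison of a single hour. Leaving out a slide leaves fewer arrays. Without slide 1, the significant probes of the treatment comparisons numbered 6543, 6009 and 1799 during the first, the fifth and the ninth hour (2 and 1 probes of NF-κB genes at the fifth and the ninth), 123 for the ninth against the first hour difference, 0 in limma for the ninth against the fifth, and within dyes 5 in control and 724 in corticosterone-treated animals (1 of NF-κB genes). Without slide 2 there were 4512 during the first and 4724 during the ninth hour, 2 of NF-κB genes during the fifth, 259 for the ninth against the first hour difference and 1179 within corticosterone-treated animals. Without slide 3 there were 5311, 4118 and 4919 at the 3 hours, 180, 7 (0 of NF-κB genes) and 6 for the ninth against the first, the fifth against the first and the ninth against the fifth hour differences, and 134 in control and 994 in corticosterone-treated animals (1 of NF-κB genes). Within corticosterone-treated animals, 4 probes of NF-κB genes were significant with processed signals and 4 with the filter on dim probes, where fewer probes were tested, and the cause of the former was not tested. Signals near background limit the dimmer *Rela* and *Nfkb2* probes and *Rel*. No paired analysis was possible beyond the array, because the labels do not give the litter of each animal and replicate numbers only give the order within an hour.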
